A study of Mus musculus with 2 samples.

Results

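The cells described here are CD4 T cells from the pancreas of NOD mice that carried transcripts of 1 or more of Izumo1r, Tbc1d4 and Tnfsf8. They had no Foxp3 UMI and stayed under limits for Lag3, naive and cell cycle transcripts. They numbered 254 of the 3913 cells kept, 91 in the 7-week library and 163 in the 12-week library. A cell was a member when it held at least 2 unique molecular identifiers (UMIs, 1 per captured transcript) of Cd3d, Cd3e and Cd3g together, at least 1 of Cd4, none of Cd8a, Cd8b1 or Foxp3, at most 1 of Cd79a, and at least 3 of Izumo1r, Tbc1d4 and Tnfsf8 together. Its naive markers (Lef1, Igfbp4 and Dapl1) had to sum to under 2 UMIs, Lag3 to under 3, and its cell cycle markers (Mki67, Top2a, Birc5, Ccna2, Rrm2, Cdk1 and Nusap1) to under 4. The members were thus chosen by the measured UMIs of these 22 genes, whose levels below are descriptions.

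The study profiled immune cells of the NOD/ShiLtJ pancreas, sorted as positive for CD45.1, the form of the leukocyte surface protein CD45 that these mice carry; NOD mice become diabetic through autoimmunity without treatment. The mice were female and 7 or 12 weeks old, and neither group carried a named transgene or treatment. Each age had 1 library of the 10x Genomics Chromium 3' chemistry, and how many mice contributed to a library is not stated in the labels. Age and library therefore cannot be told apart, no difference has a replicate check, and every interval covers counting error only, at 95%. The libraries held 1113 and 2812 barcodes with 8701184 and 19288252 UMIs, of which 1109 and 2804 passed the filters. The same 2 barcode sequences occurred in both libraries, and 1 of them was a member at 12 weeks.

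Izumo1r encodes folate receptor 4, a surface protein known from regulatory T cells and, together with the ecto-nucleotidase CD73 (Nt5e), from anergic CD4 T cells, which have met antigen and respond poorly to it. Tbc1d4 encodes a Rab GTPase-activating protein that controls the traffic of glucose transporters to the cell surface, and Tnfsf8 encodes CD30 ligand, a member of the TNF superfamily. Follicular helper T cells, which help B cells in germinal centres, carry the transcription factor BCL6, the chemokine receptor CXCR5 and the inhibitory receptor PD-1 (Pdcd1), and secrete interleukin-21. Interleukin-21 acts on B cells and CD8 T cells, and its receptor is known to be needed for diabetes in NOD mice.

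In the mm10 annotation (GENCODE M21), Izumo1r lies on chromosome 9 from 14885814 to 14903949, Tbc1d4 on chromosome 14 from 101442360 to 101609191, Tnfsf8 on chromosome 4 from 63831308 to 63861347, and Il21 on chromosome 3 from 37222759 to 37232636, each on the minus strand. Their promoters, 250 bases before to 50 after the start in RefSeq on GRCm38.p6, are shown because the first 3 genes define the cells and Il21 is the cytokine followed in them below. They are written 5′ to 3′ on the gene's strand, and capitals mark the core of the NFAT motif, GGAAA on either strand. The windows are chr9:14903718-14904017, chr14:101609142-101609441, chr4:63861235-63861534 and chr3:37232587-37232886.

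Izumo1r promoter: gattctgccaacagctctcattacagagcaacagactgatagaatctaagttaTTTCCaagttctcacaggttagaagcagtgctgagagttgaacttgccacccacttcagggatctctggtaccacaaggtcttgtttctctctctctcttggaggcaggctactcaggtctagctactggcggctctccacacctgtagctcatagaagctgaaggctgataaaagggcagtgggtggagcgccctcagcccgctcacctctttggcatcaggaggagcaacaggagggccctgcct
Tbc1d4 promoter: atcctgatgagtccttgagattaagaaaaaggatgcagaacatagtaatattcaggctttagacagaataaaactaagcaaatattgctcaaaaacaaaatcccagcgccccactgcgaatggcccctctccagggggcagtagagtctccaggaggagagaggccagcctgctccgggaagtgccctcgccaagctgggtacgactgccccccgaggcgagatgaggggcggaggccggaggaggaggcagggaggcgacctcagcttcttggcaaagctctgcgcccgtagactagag
Tnfsf8 promoter: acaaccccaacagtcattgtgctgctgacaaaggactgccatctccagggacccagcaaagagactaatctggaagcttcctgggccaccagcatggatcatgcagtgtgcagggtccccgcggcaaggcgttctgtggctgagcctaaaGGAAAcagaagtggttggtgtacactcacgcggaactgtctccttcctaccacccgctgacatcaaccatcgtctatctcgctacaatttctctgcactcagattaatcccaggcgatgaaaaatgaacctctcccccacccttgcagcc
Il21 promoter: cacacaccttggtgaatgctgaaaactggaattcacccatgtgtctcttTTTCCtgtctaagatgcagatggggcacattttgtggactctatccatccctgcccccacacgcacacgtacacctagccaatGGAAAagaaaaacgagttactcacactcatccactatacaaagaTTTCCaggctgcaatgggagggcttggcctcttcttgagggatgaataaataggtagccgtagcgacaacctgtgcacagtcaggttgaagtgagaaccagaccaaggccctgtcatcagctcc

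The NFAT core occurred 3 times in the Il21 window, once each in those of Izumo1r and Tnfsf8, and 0 times in that of Tbc1d4. It occurred in 61.3% of 32851 mouse promoter windows of the same length, so its presence does not set these genes apart. Neither the AP-1 motif TGANTCA nor the TCF/LEF motif CTTTGAA, searched on both strands, was found in the 4 windows. These motifs occurred in 7.81% and 5.14% of all windows.

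Of all cells with a CD4 T cell profile (CD3, Cd4, Cd8 and Cd79a criteria alone), 91 of 355 were members at 7 weeks, 25.6% (21.2 to 30.5, exact Clopper-Pearson interval), and 163 of 810 at 12 weeks, 20.1% (17.4 to 23.1). The ratio of the 2 shares was 0.785 (0.604 to 1.03, exact conditional binomial interval), which includes 1. Of all kept cells, members were 8.21% (6.66 to 9.98) and 5.81% (4.98 to 6.74), a ratio of 0.708 (0.545 to 0.926). When each cell was first thinned to 3000 UMIs, so that both libraries met the rule at the same depth, members were 94 of 277 CD4 T cells (33.9%) and 161 of 677 (23.8%), a ratio of 0.701 (0.540 to 0.914). Thinning left out 53 and 0 kept cells that were shallower. It also lowers the UMIs of the excluded genes, so the 94 include cells that were not members at full depth. Members had a median of 5286 UMIs and 1805 genes at 7 weeks and of 4466 UMIs and 1638 genes at 12 weeks.

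The other CD4 T cells fell into 5 sets by the parts of the rule they failed. A cell that failed several parts went to the first that applied of cycling, Foxp3-positive, naive-type and Lag3-high. At 7 and 12 weeks there were 72 and 282 naive-type cells, 76 and 154 Lag3-high cells (at least 3 Lag3 UMIs), 41 and 54 Foxp3-positive cells, and 30 and 48 cycling cells. A further 45 and 109 cells met every part of the rule but the marker sum, and are called the remaining CD4 T cells. The share of naive-type cells among CD4 T cells was 1.72 times as high at 12 as at 7 weeks (1.32 to 2.26), and members and naive-type cells share that denominator.

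The marker sum had a median of 7 UMIs a cell at 7 weeks and 8 at 12 weeks, and a maximum of 72 and 56. It was exactly 3 in 11 and 21 members and at least 10 in 38 and 69. All 3 markers were detected in 47 of 91 and 71 of 163 members, and just 1 in 15 and 14. Tbc1d4 was detected in 83 and 144 members, Izumo1r in 77 and 136, and Tnfsf8 in 54 and 103. Of the 3 transcripts, Tnfsf8 was the one most often missing from a member. Lag3, limited to under 3 UMIs, was not absent: 26 and 46 members held 1 UMI of it and 19 and 35 held 2. Lag3-high cells were deeper than members, with medians of 6911.5 and 4942 UMIs against 5286 and 4466.

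**Figure D1:**
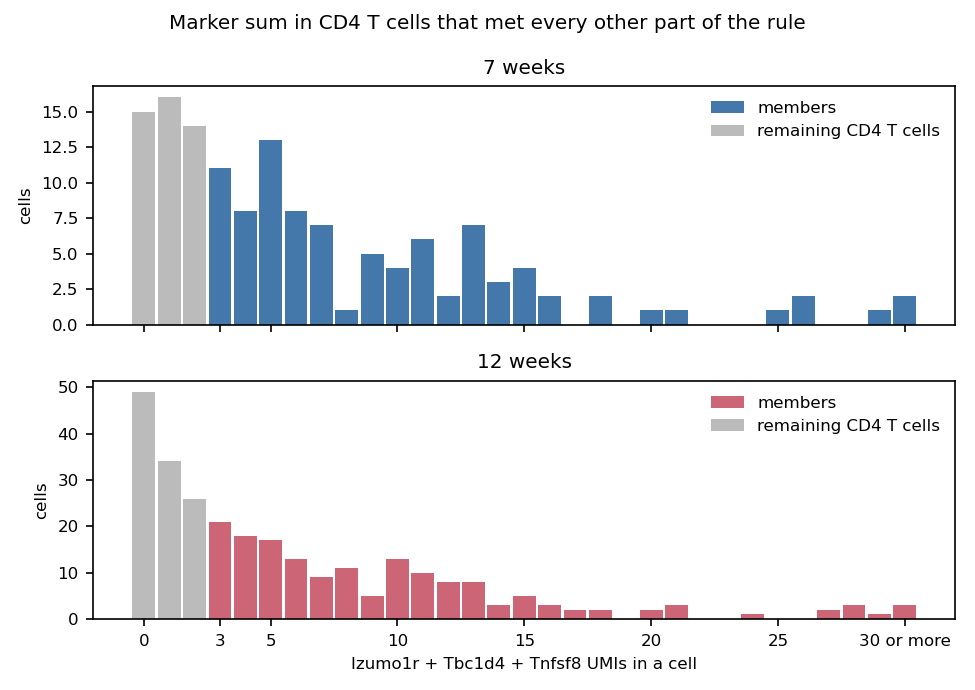
Number of CD4 T cells (vertical axis) by the summed UMIs of Izumo1r, Tbc1d4 and Tnfsf8 in a cell (horizontal axis, the last bar holding 30 or more) among cells that met every other part of the rule, 7 weeks above and 12 weeks below. Coloured bars are the 91 and 163 members and grey bars the 45 and 109 remaining cells; the counts fall across the limit of 3 UMIs without a gap.

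Cells just outside the limit, with a marker sum of 2, numbered 14 and 26, against 11 and 21 just inside with a sum of 3. Levels are given as CPM, a gene's UMIs per 1000000 UMIs of the summed cells. Pdcd1 stood at 96.2 CPM outside and 409 inside at 7 weeks, and at 91.8 and 190.4 at 12 weeks. Ccl5, a chemokine of effector and memory T cells, went the other way, with 1498 outside and 81.8 inside at 7 weeks and 2211 and 896 at 12 weeks. These values rest on few cells, 7 Pdcd1 UMIs outside at 7 weeks among them, and they describe the limit without testing it.

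Izumo1r was not highest in the members. Summed over the cells of a set, Izumo1r stood at 540.1 and 645 CPM in members at 7 and 12 weeks, at 595 and 849 in Lag3-high cells, and at 986 and 1172 in Foxp3-positive cells. Tbc1d4 stood at 611 and 638 in members and 758 and 646 in Lag3-high cells, against 184 and 201 in Foxp3-positive cells. Tnfsf8 stood at 384 and 551 in members and 355 and 781 in Lag3-high cells, and was at 8.91 and 74.5 in Foxp3-positive cells. Members and Lag3-high cells thus shared all 3 transcripts, whereas Foxp3-positive cells shared mainly Izumo1r. As a measure of free RNA, at 2000 UMIs a cell Izumo1r was found in 60.4% and 61.3% of members and in 3.54% and 1.43% of B cells, whose median depths before thinning were 4973 and 4597 UMIs.

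Il21, which the rule did not use, was found in a minority of members. It gave 20 UMIs in 17 of 91 members at 7 weeks, 33.1 (20.2 to 51.2) CPM, and 40 UMIs in 28 of 163 at 12 weeks, 45.8 (32.7 to 62.4) CPM. Lag3-high cells held more, 98.1 and 129.8 CPM, and members stood at 0.338 (0.193 to 0.568) and 0.353 (0.24 to 0.509) times that level. The remaining cells held 3.93 and 5.9 CPM, naive-type cells 9.05 and 13.9, and Foxp3-positive cells 2.97 and 0. At 2000 UMIs a cell, 7.69% and 6.13% of members had an Il21 UMI, against 25% and 23.4% of Lag3-high cells and 0.885% and 0% of B cells. Members and all other CD4 T cells together could not be separated for Il21, with ratios of 0.84 (0.488 to 1.38) and 1.07 (0.739 to 1.52).

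**Figure D2:**
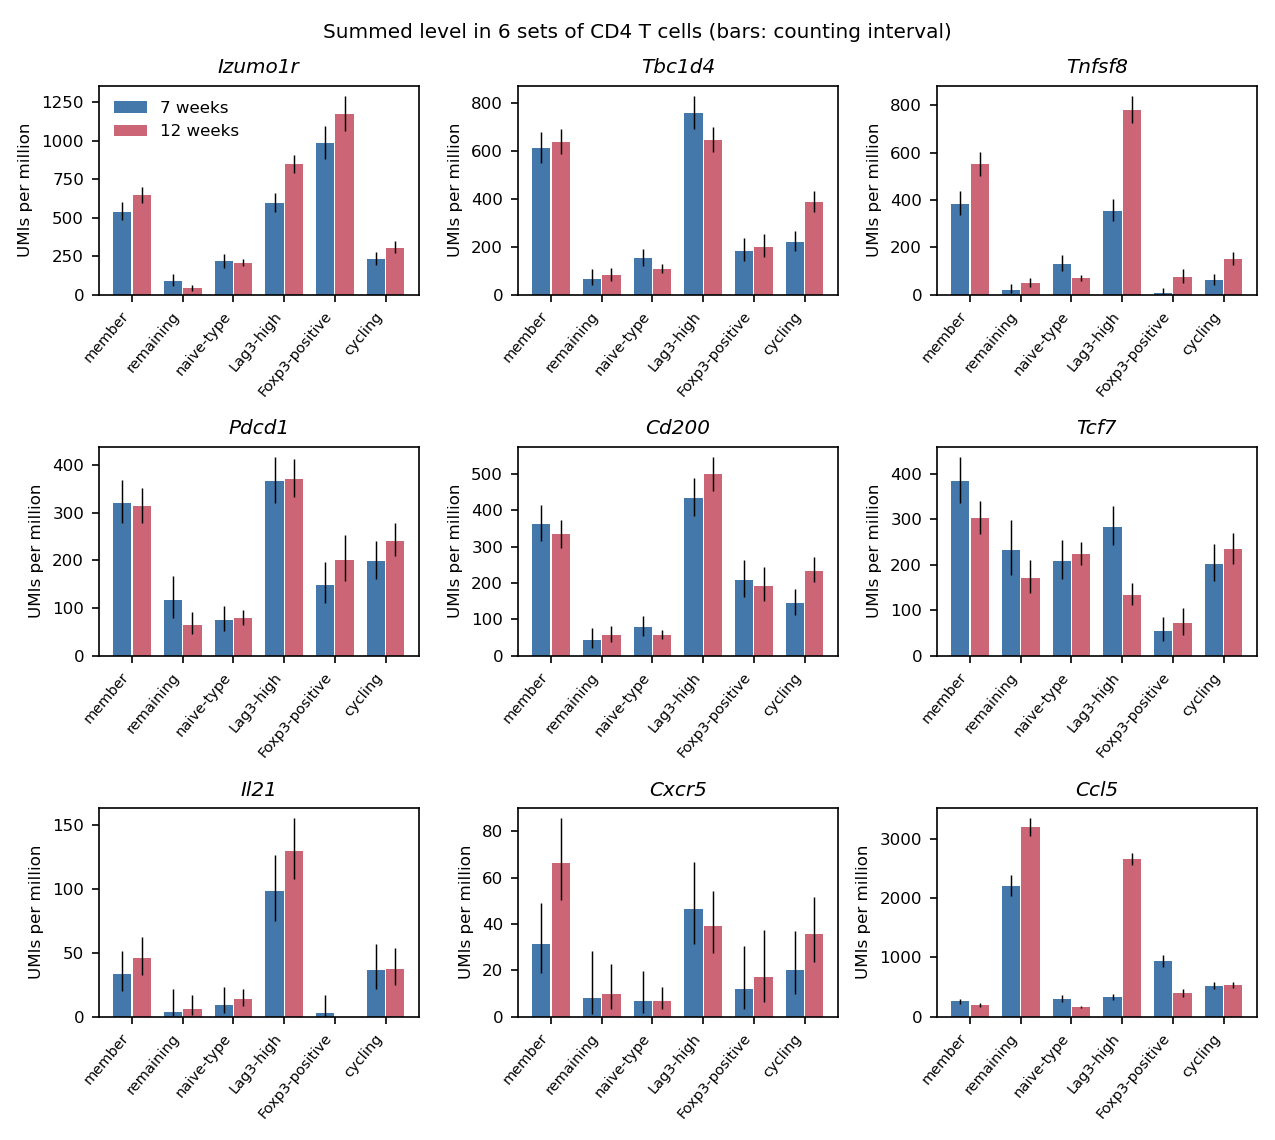
CPM (vertical axes, from 0) of 9 genes summed over the cells of 6 sets of CD4 T cells (horizontal axes), 7 weeks in blue and 12 weeks in red; lines are exact Poisson 95% intervals for counting error. Pdcd1 and Cd200 are high in members and Lag3-high cells, Il21 is highest in Lag3-high cells, and Ccl5 at 7 weeks is highest in the remaining cells, at 2204.

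To see what else marked these cells, UMIs were summed over members and over the other CD4 T cells of the same library. A gene was called when the ratio of CPM was at least 1.5, or at most its inverse, in both libraries. Of 6814 genes that reached 30 UMIs in both libraries, 123 were called higher in members (1.81%) and 271 lower (3.98%). Genes of the rule, whose direction follows in part from it, were not left out of these counts. Because the rule was applied to these cells, the comparison describes them and is no test. Outside the rule, the 20 genes with the highest ratios were Bcl6, Fam43a, Art2b, Dhrs3, Ntrk3, Tnfsf11, Tox2, Irak1bp1, Klf4, Sh2b3, Tma16, Bag3, Rarg, Cd83, Strn3, Rab37, Ext1, Evi2a, Nsg2 and Fam178a. When every cell was thinned to 2000 UMIs, 47 genes were called higher, 15 of them among the 123, and the lower of the 2 ratios fell below 1 for Sh2b3 (0.567), Tma16 (0.580), Bag3 (0.580) and Rarg (0.541).

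Bcl6, the repressor that directs follicular helper differentiation, headed them at 36.5 (22.8 to 55.2) CPM in members against 10.2 in other CD4 T cells at 7 weeks, and 28.6 (18.5 to 42.3) against 9.25 at 12 weeks. Its counts were low, 22 UMIs in 17 cells and 25 in 20. Tox2, a transcription factor of the same programme, stood at 118 against 51.5 and 82.4 against 38.3. Tnfsf11 encodes RANK ligand, and its level was 149 against 52 CPM and 134 against 60.8, found in 45 and 65 members. All 3 genes were above the other CD4 T cells in both libraries, with counting intervals of the ratios clear of 1. Lag3-high cells had Tox2 and Tnfsf11 too: members over Lag3-high cells gave 1.22 (0.852 to 1.75) and 1.35 (0.939 to 1.95) for Tox2 and 1.22 (0.889 to 1.68) and 1.1 (0.839 to 1.43) for Tnfsf11, intervals that include 1. For Bcl6 this ratio was 2.83 (1.21 to 7.36) at 7 weeks and 1.31 (0.7 to 2.49) at 12 weeks, where the interval includes 1. Against the remaining cells, Bcl6 had 1.86 (0.686 to 6.27), which includes 1, and 4.85 (1.48 to 25.1).

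Dhrs3 encodes a retinaldehyde reductase and Rarg a retinoic acid receptor. Dhrs3 stood at 67.9 against 21.4 CPM and 38.9 against 16.5, and Rarg at 29.8 against 14.9 and 30.9 against 15. Rarg was not particular to members, at 29.7 and 34.4 in Foxp3-positive cells and 27.1 and 17.3 in naive-type cells. Ntrk3, a neurotrophin receptor, was at 19.9 against 8.82 and 30.9 against 13.3. Its ratio at 7 weeks was 2.25 (0.998 to 4.89), an interval that includes 1, and naive-type cells stood at 11.3 and 23.6. Rab37, a small GTPase of secretory vesicles, was found in 31 of 91 and 62 of 163 members, and at 12 weeks stood at 95 against 40.3 CPM. Cd83 rested partly on single cells, since 1 cell held 34.3% of its UMIs at 7 weeks and 1 held 23.4% at 12 weeks. It stood at 58 and 53.8 CPM in members and at 44.5 and 86 in Foxp3-positive cells.

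Of the 20 genes on a follicular helper list, 18 had enough UMIs, and 7 of them were called higher in members than in other CD4 T cells: Bcl6, Pdcd1, Tox2, Cd200, Sostdc1, Btla and Tcf7. None was called lower. Over all genes 1.81% were called higher and 3.98% lower. The list's median log2 ratio was 0.54 at 7 weeks and 0.70 at 12 weeks, against -0.02 and 0.05 over all genes measured. Pdcd1 stood at 321 against 204 CPM and 314 against 187, ratios of 1.57 (1.32 to 1.87) and 1.68 (1.46 to 1.93). Cd200, an immune inhibitory ligand, had ratios of 1.71 (1.45 to 2.01) and 1.63 (1.42 to 1.86), and Tcf7, a transcription factor of naive, memory and follicular helper T cells, of 1.86 (1.58 to 2.18) and 1.63 (1.41 to 1.88). Btla, an inhibitory receptor, had ratios of 1.81 (1.2 to 2.69) and 1.78 (1.32 to 2.39). The count of 7 depended on settings: with a marker sum of at least 2 it was 3 of 18, and with cells thinned to 2000 UMIs 3 of 14.

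Sostdc1 shows how unevenly such a transcript can lie: its 31 UMIs at 7 weeks came from 3 members, and its 53 at 12 weeks from 12. It encodes a secreted antagonist of BMP and Wnt signalling. Cxcr5 was called in neither direction. It stood at 31.5 (19 to 49.2) CPM in members at 7 weeks against 22.3 in other CD4 T cells, and at 66.4 (50.4 to 85.8) against 21.3 at 12 weeks. Sh2d1a, which encodes the adaptor SAP, stood at 341 against 274 and 461 against 285, and Icos at 97.8 against 139 and 124 against 135. The list thus divided, and the cytokine Il21, the receptor Cxcr5 and the costimulatory receptor Icos were not among the genes called.

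Of 15 genes on an anergy list, 12 were measured and 0 were called against other CD4 T cells, with medians of 0.36 and 0.42. Over all genes 1.81% were called higher and 3.98% lower, so a count of 0 of 12 does not set the list apart. Nt5e stood at 84.5 CPM in members and 65.5 in other CD4 T cells at 7 weeks, and at 77.9 and 54 at 12 weeks. It was found in 34 of 91 and 49 of 163 members.

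Of 13 Th1 genes measured, 5 were called lower in members (Cxcr6, Ccl5, Il18r1, Hopx and Nkg7) and 0 higher, beside 3.98% and 1.81% of all genes. Ccl5 stood at 257 against 684 CPM and 196 against 1213. At 7 weeks 1 member held 69% of the members' Ccl5 UMIs, and without it they stood at 80.8 CPM. The receptor gene Cxcr3 was not among them, at 187 against 220.1 and 267 against 219.6, and Ifng stood at 136 against 191 and 98.5 against 109. Members thus carried Cxcr3 and Ifng at levels within 1.5 times those of other CD4 T cells, and less Ccl5. The Th2 and Th17 cytokines Il5, Il13, Il17a, Il17f and Il22 had 0 UMIs in members of both libraries, which allows up to 3 UMIs in each set. Il4 had 0 UMIs at 7 weeks and 13 in 9 members at 12 weeks.

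Of 10 regulatory T cell genes measured, 5 were called lower: Il2ra, Ctla4, Il10, Capg and Itgae. For this list and the next 2, the shares over all genes were 3.98% lower and 1.81% higher. Members were chosen without Foxp3, and the comparison cells include Foxp3-positive ones, so the direction follows in part from the rule. Ctla4, which encodes an inhibitory receptor, stood at 87.8 against 242 CPM and 112 against 171, and Il10 at 4.97 against 107 and 13.7 against 48.3. Ikzf2, which encodes Helios, was at 262 against 350.1 and 326 against 268. Of 8 genes measured on an inhibitory receptor list, Pdcd1, Btla and Cd200 were called higher and Ctla4, Havcr2 and Entpd1 lower. The list also holds genes that do not encode receptors, the ligand gene Cd200 among them. Tnfsf11, Tnfsf14 and Lta were called higher among 8 TNF superfamily ligands outside the rule. With a marker sum of at least 2, the genes called higher numbered 1 of 8 on either list. Lta, which encodes lymphotoxin alpha, had ratios of 3.29 (2.02 to 5.34) and 1.51 (0.947 to 2.34).

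Of 11 naive T cell genes, 1 was called higher (Tcf7) and 4 lower, Ccr7, Satb1 and Txk among them, beside 1.81% and 3.98% of all genes. Members were chosen low in other naive markers while the comparison cells include the naive-type ones, so this direction too follows in part from the rule. Of 15 chemokine and homing receptors, 1 was called higher (Cxcr4) and 7 lower, Ccr2, Cxcr6 and Itgae among them. Ccr2 stood at 14.9 against 96.1 CPM and 16 against 60.0. Ifngr1, the binding chain of the interferon-gamma receptor, stood at 46.4 against 153 and 42.4 against 164, and was 1 of 3 genes called lower among 14 cytokine receptors. Of 10 costimulatory receptors, 0 were called, which does not set them apart beside 1.81% and 3.98% of all genes. Of the 10 genes lowest in members, 8 belong to the cell cycle or its histones (Hist1h2ap, Prc1, Fbxo5, Hmmr, Tpx2, Ccnb1, Cdc20 and Cdc45), and the rule removed cycling cells from the members alone. With cycling cells left out of the comparison too, 151 genes were lower in members in place of 271, and Hist1h2ap stood at 1.10 times. The other two were Tnip3 and Ccl4, a chemokine at 43.1 against 662 CPM and 21.8 against 408.

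The remaining CD4 T cells differ from members in the marker sum alone, and are the closest comparison the rule allows. Of 3367 genes measured, 166 were called higher in members (4.93%) and 118 lower (3.5%). Of 15 follicular helper genes measured, 10 were called higher (Pdcd1, Tox, Tox2, Maf, Cd200, Sostdc1, Angptl2, Btla, Il6st and Tcf7) and 0 lower, with medians of 0.91 and 1.16 against 0.00 and 0.09 over all genes. Cd200 stood at 363 (316 to 414) and 333 (296 to 374) CPM in members against 43.2 and 57, ratios of 8.4 (4.6 to 17.1) and 5.84 (3.98 to 8.88). Pdcd1 had ratios of 2.73 (1.85 to 4.15) and 4.84 (3.36 to 7.17), and Tnfsf11 of 7.59 (3.14 to 23.9) and 5.24 (2.95 to 10.1).

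Against the same cells, 4 of 9 anergy genes were called higher (Nt5e, Dgkz, Nfatc1 and Cd5), with 0 lower, beside 4.93% and 3.5% of all genes. Dgkz, a diacylglycerol kinase that limits T cell receptor signals, stood at 99.4 against 27.5 CPM and 97.3 against 25.6. Of 6 regulatory T cell genes, 4 were called higher (Ctla4, Ikzf2, Tnfrsf4 and Tnfrsf9), and of 14 T cell receptor signalling genes, Zap70, Lcp2, Cd6 and Plcg1 were higher and Sla2 lower. Tnfrsf4, which encodes the costimulatory receptor OX40, stood at 275 against 47.1 and 436 against 62.9. Of 5 genes measured on the inhibitory receptor list 4 were higher in members (Pdcd1, Ctla4, Btla and Cd200), and of 9 costimulatory receptor genes 2 (Tnfrsf4 and Tnfrsf9), with 0 lower on either list. The remaining cells had few marker UMIs rather than none: 15 of 45 and 49 of 109 had a sum of 0, and the others held 1 or 2.

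On the lower side were 7 of 9 naive T cell genes (Ccr7, S1pr1, Klf2, Il7r, Satb1 and Txk among them), 4 of 9 Th1 genes and 6 of 12 chemokine and homing receptors. Over all genes 3.5% were lower. Tcf7 of the naive list and Tnf of the Th1 list were called higher. Ccl5 stood at 257 against 2204 CPM and 196 against 3189, and Il7r, the interleukin-7 receptor chain of naive and memory cells, at 51.4 against 153 and 112 against 385. S1pr1, the receptor by which T cells leave tissue, stood at 69.6 against 216 and 93.9 against 197. All 6 myeloid markers measured were also lower in members: the list summed to 4328 and 643 CPM in members and 10445.5 and 3553 in the remaining cells. The part of RNA from myeloid cells in these ratios was not tested.

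Against Lag3-high cells, smaller shares of genes were called: of 4366 measured, 39 were higher in members (0.893%) and 79 lower (1.81%). Of 18 follicular helper genes, 1 was higher (Sostdc1) and 3 lower (Icos, Il21 and Angptl2). Pdcd1 stood at 321 in members and 367 in Lag3-high cells at 7 weeks and at 314 and 371 at 12 weeks, ratios of 0.876 (0.72 to 1.07) and 0.846 (0.719 to 0.995). Members held less Ifng (0.393 (0.301 to 0.509) and 0.313 (0.243 to 0.4) times), Il10 (0.0448 (0.00902 to 0.136) and 0.0919 (0.0464 to 0.166) times) and Ctla4 (0.382 (0.273 to 0.527) and 0.302 (0.238 to 0.379) times). They held more Il7r (3.19 (1.53 to 7.3) and 2.71 (1.84 to 4.05) times), Gpr183 (2.01 (1.14 to 3.63) and 4.48 (2.9 to 7.16) times) and Lta. Gpr183 encodes EBI2, an oxysterol receptor that positions lymphocytes in follicles. Members held 0.783 (0.631 to 0.969) times the Lag3-high level of Ccl5 at 7 weeks and 0.0737 (0.0628 to 0.0861) times at 12 weeks, where Lag3-high cells stood at 2656 CPM. Without the 1 member richest in Ccl5 in each library these ratios were 0.246 (0.176 to 0.339) and 0.0576 (0.0480 to 0.0686).

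Within the members, cells with and without an Il21 UMI were set side by side for 14 genes outside the rule. Maf, a transcription factor known to drive Il21, was found in 13 of 17 Il21-positive members and 35 of 74 others at 7 weeks, and in 24 of 28 and 83 of 135 at 12 weeks. Cxcr5 was found in 6 of 17 and 8 of 74 at 7 weeks, and in 8 of 28 and 30 of 135 at 12 weeks. For both genes the exact intervals of the 2 shares overlapped in each library. The intervals were apart for Tcf7 at 7 weeks, found in 17 of 17 and 52 of 74, and for Sh2d1a at 12 weeks, found in 28 of 28 and 99 of 135. Neither was apart in the other library, where Tcf7 was found in 21 of 28 and 96 of 135 and Sh2d1a in 12 of 17 and 47 of 74. Icos and Cxcr3 had the lower share in Il21-positive members at 7 weeks, 6 of 17 against 31 of 74 and 7 of 17 against 40 of 74, and the higher share at 12 weeks, 14 of 28 against 52 of 135 and 17 of 28 against 76 of 135. Il21-positive members were deeper, with median UMIs of 5395 against 5190 at 7 weeks and 5381.5 against 4324 at 12 weeks, and the part of depth in these shares was not tested.

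Levels were also set out by marker sum within the members. At sums of 3, 4 to 9 and 10 or more, Il21 stood at 16.4, 12.3 and 53.4 CPM at 7 weeks and at 56.0, 39.7 and 48.6 at 12 weeks, so it had no common order in the 2 libraries. Il7r was lower at higher sums in both libraries, with 131, 70.0 and 20.03 CPM at sums of 3, 4 to 9 and 10 or more at 7 weeks, and 179, 159 and 60.2 at 12 weeks. These Il7r levels rest on 8, 17 and 6 UMIs at 7 weeks and on 16, 56 and 26 at 12 weeks. The sums are values that the rule used, so the order is a description. Cells of high sum were deeper, with medians of 6215.5 against 4568.5 UMIs at 7 weeks and 5167 against 4058 at 12 weeks for sums of 10 or more and of 4 to 9.

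Between ages, members were compared gene by gene as the ratio of CPM at 12 over 7 weeks. Of 5005 genes with at least 30 UMIs over both libraries, 535 were at least 1.5 times as high at 12 weeks (10.7%) and 496 at most the inverse (9.91%). In the other CD4 T cells of the same libraries, 497 of 8758 genes (5.67%) and 1003 (11.5%) lay past the same fold. Before the genes, 5 cells need naming: 4 members at 7 weeks and 1 at 12 weeks held 10 or more UMIs of the B cell and myeloid lists (other than H2-Aa, Cd74 and Cst3), and they held 134 of 195 and 68 of 155 such UMIs in all members.

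The 12 genes lowest at 12 weeks were Cd74, Spi1, Atf3, H2-Eb1, H2-Aa, Try10, Cxcl9, Tyrobp, H2-M2, Ifitm3, H2-Ab1 and H2-DMb1, most of them genes of antigen-presenting cells. Cd74, the invariant chain of MHC class II, stood at 2255 CPM at 7 weeks and 132 at 12 weeks, a ratio of 0.0584 (0.0478 to 0.0707). Without the 5 cells it stood at 93.2 and 105, a ratio of 1.12 (0.790 to 1.62). The ratios of H2-Aa, H2-Ab1 and H2-Eb1 went from 0.117, 0.132 and 0.106 to 1.19, 1.11 and 1.56 without those cells. Without them, Ifitm3 went from 0.0797 to 0.810 (0.269 to 2.56), Tyrobp from 0.0904 to 0.495 (0.203 to 1.17) and Atf3 from 0.0364 to 0.270 (0.0451 to 1.18). Cxcl9, at 0.0669 with all members, was left with 2 UMIs at 7 weeks and 3 at 12 weeks, too few for a ratio. Try10, a trypsinogen that was not on the acinar list, and H2-M2 each came from 1 cell at 7 weeks, and 1 cell held 88.7% of the Cxcl9 UMIs. The low ratios of Cd74, H2-Aa, H2-Ab1 and H2-Eb1 within members thus rested on 5 of the 254 cells. In other CD4 T cells, all cells included, the Cd74 ratio was 0.136.

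The 12 genes highest at 12 weeks were Spp1, Penk, Stfa3, Lyz2, Bdh1, Psmg1, Nub1, Ppa1, Gar1, Phgdh, Mrps10 and Pfkl. Spp1, which encodes osteopontin, had 1 UMI at 7 weeks and 60 in 6 members at 12 weeks, but 1 cell held 71.7% of them. With the richest cell of each library left out, the ratio was 3.93 in place of 41.5. Lyz2, a myeloid transcript, fell from a ratio of 3.64 to 1.18 (0.607 to 2.37) without the 5 cells. Penk, which encodes the opioid peptide precursor proenkephalin, had 13 UMIs in 3 members at 7 weeks and 76 in 15 at 12 weeks, a ratio of 4.04 (2.23 to 7.93), and 3.68 (2.03 to 7.24) without the 5 cells. In other CD4 T cells the Penk ratio was 1.52 (1.14 to 2.06). Penk was not highest in members, at 21.5 and 87 CPM against 45 and 103 in Lag3-high cells. At 7 weeks 1 member held 61.5% of its UMIs.

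Of the same 12 genes, 4 enzyme or RNA-modification genes are given in full, chosen after their values were seen. Ppa1, a pyrophosphatase, stood at 28.2 and 75.6 CPM (14 and 38 members), a ratio of 2.68 (1.56 to 4.88) against 1.11 (0.915 to 1.36) in other CD4 T cells. Gar1, a component of the ribonucleoproteins that modify ribosomal RNA, had a ratio of 2.61 (1.53 to 4.67) against 1.06 (0.848 to 1.33), and Phgdh, the first enzyme of serine synthesis, 2.88 (1.51 to 5.94) against 1.15 (0.921 to 1.44). Bdh1, a ketone body dehydrogenase, had 4.84 (1.69 to 19) against 0.76 (0.495 to 1.18), from 4 UMIs in 4 members at 7 weeks. Without the 5 cells these 4 ratios were 2.45, 2.38, 2.63 and 4.41. At 7 weeks all 4 genes were lower in members than in other CD4 T cells, at 0.391, 0.526, 0.36 and 0.366 times, and at 12 weeks they stood at 0.944, 1.3, 0.901 and 2.33 times. They were chosen for their ratio between ages, so the contrast with other cells is a description. In the remaining CD4 T cells Ppa1 had a ratio of 2.5 (1.16 to 6.19), so its rise was not particular to members. Gar1, Phgdh and Bdh1 had ratios of 1.46, 0.885 and 1.75 there, with intervals that include 1. Pfkl, also among the 12, had a ratio of 3.15 (1.51 to 7.37) in members and 1.5 (1.07 to 2.14) in other CD4 T cells. It was thus higher at 12 weeks in both. Psmg1, Nub1 and Mrps10 had ratios of 1.21, 0.889 and 1.11 in other CD4 T cells, with intervals that include 1.

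**Figure D3:**
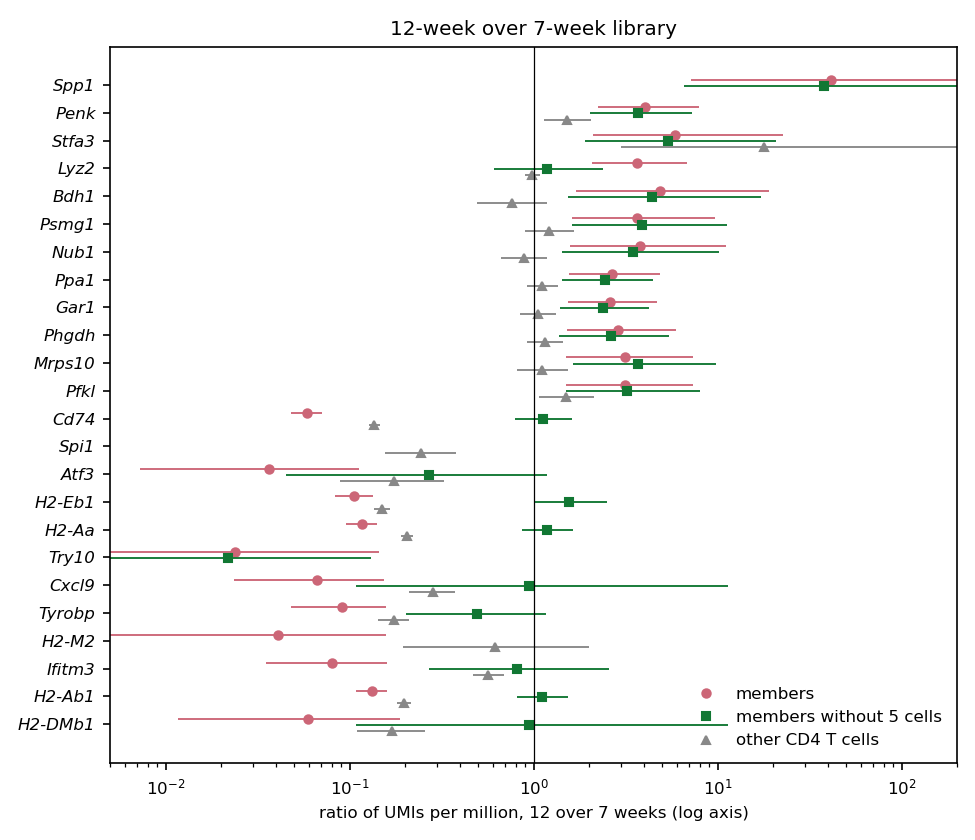
Ratio of CPM at 12 over 7 weeks (log axis) for the 24 genes named above, in members (red circles), in members without the 5 cells rich in B cell and myeloid markers (green squares) and in other CD4 T cells (grey triangles), with exact 95% counting intervals cut at the axis ends; ratios of 0 or against 0 are not drawn. Cd74 moves from 0.0584 to 1.12 without the 5 cells, while Ppa1, Gar1 and Phgdh stay above 1. The green squares of Cxcl9 and H2-DMb1 rest on 2 UMIs at 7 weeks and 3 at 12 weeks.

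Immediate early and stress genes were lower at 12 weeks, with 10 of 19 measured past the fold and 0 higher, and a median log2 ratio of -0.72 against 0.06 over all genes. Over all genes 9.91% were past the fold downwards and 10.7% upwards. The 10 were Fos, Fosb, Jund, Egr1, Ier3, Ier5, Dusp2, Atf3, Zfp36 and Hspa1b. Without the 5 cells the count was 5 of 17 (Jund, Egr1, Ier5, Dusp2 and Hspa1b), with a median of -0.25 against 0.04 over all genes. Of all 4839 genes measured without those cells, 424 were lower and 505 higher. Ier5 stood at 212 (177 to 252) CPM at 7 weeks and 36.6 (25.1 to 51.7) at 12 weeks. Its ratio was 0.173 (0.113 to 0.256) in members and 0.173 (0.14 to 0.214) in other CD4 T cells. Hspa1b, an inducible heat shock protein gene, had ratios of 0.302 (0.216 to 0.417) in members and 0.412 (0.353 to 0.482) in other CD4 T cells. In other CD4 T cells 7 of 20 genes of the list were past the fold, 0 of them higher, with a median of -0.39. Of all genes in those cells, 11.5% were past the fold downwards and 5.67% upwards. Within the other CD4 T cells, the remaining CD4 T cells had 3 of 17 genes past the fold downwards and 2 upwards, with a median of -0.09. Over all 3023 genes measured in the remaining cells these counts were 404 and 307, shares near those of the list. Such genes also respond to tissue handling, whose part was not tested.

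Of the follicular helper list, Cxcr5 was past the fold upwards and Cd40lg downwards among 18 genes measured, and the median was 0.16. That is 1 gene in each direction, a smaller share than the 10.7% and 9.91% of all genes, and Cxcr5 is described as a single gene. Cxcr5 stood at 31.5 (19 to 49.2) CPM at 7 weeks (14 of 91 members) and 66.4 (50.4 to 85.8) at 12 weeks (38 of 163), a ratio of 2.11 (1.24 to 3.75), against 0.954 (0.662 to 1.39) in other CD4 T cells. Cd40lg, the ligand of the B cell costimulatory receptor CD40, stood at 134 and 77.9, a ratio of 0.58 (0.414 to 0.811). Bcl6, Pdcd1, Cd200 and Il21 had ratios of 0.785 (0.425 to 1.46), 0.976 (0.809 to 1.18), 0.918 (0.768 to 1.1) and 1.38 (0.789 to 2.5), all with intervals that include 1.

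Of 11 anergy genes measured between ages, Egr2, Nr4a1 and Nr4a2 were past the fold downwards and 0 upwards, beside 9.91% and 10.7% of all genes. In other CD4 T cells 5 of 14 were past the fold downwards and 1 upwards. The list's median log2 ratio was -0.25 in members and -0.29 in other CD4 T cells, so the lower level at 12 weeks was not particular to members. Nr4a1, an orphan nuclear receptor induced by T cell receptor signals, stood at 154 and 48.1 CPM, a ratio of 0.312 (0.211 to 0.454) against 0.482 (0.408 to 0.569) in other CD4 T cells. Of 9 costimulatory receptors measured between ages, 2 were past the fold upwards, Cd28 (1.62 (1.36 to 1.94)) and Tnfrsf4 (1.59 (1.32 to 1.91)), and 2 downwards, Tnfrsf9 and Slamf1, so the list had no common direction beside the 10.7% and 9.91% of all genes. In other CD4 T cells Cd28 and Tnfrsf4 had ratios of 1.19 and 1.06. Il7r had a ratio of 2.18 (1.45 to 3.39) in members and 2.56 (2.12 to 3.11) in other CD4 T cells, and Gpr183 of 1.97 (1.35 to 2.91) and 0.928 (0.748 to 1.15). The differences between members and other CD4 T cells in these ratios were not tested.

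Transcripts of pancreatic cells differed between the libraries and were in every set. The acinar list summed to 31.5 CPM in members at 7 weeks and 307 at 12 weeks, within the 7.86 to 56.4 and 124 to 476 of the 6 sets, and the endocrine list to 26.5 and 147. The remaining cells at 12 weeks stood apart, with an endocrine sum of 13882 CPM. The B cell list stood at 31.5 and 34.3 in members, with Cr2 at 0 in both libraries. The cytotoxic list summed to 555 and 417, against 3355 and 4058 in the remaining cells, with Cd8a and Cd8b1 at 0 by the rule. The myeloid list was higher at 7 weeks, as given above, with Csf1r at 0 at 7 weeks and Adgre1 at 12 weeks. No doublet caller was run.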

How the data were processed

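Single-cell RNA was measured in 2 libraries, 1 per age. Per the submitters' processing notes, the authors made the deposited matrices of raw UMI counts per gene and barcode with Cell Ranger 1.3.1 on mm10, with settings that the sources used here do not give. From these counts, barcodes under 200 genes or above 10% mitochondrial UMIs were left out, the rule was applied to raw UMIs, and UMIs were summed per set and library and scaled to CPM (Python 3.11.15, numpy 2.4.6, scipy 1.17.1, pandas 2.3.3). The members and lists were chosen with earlier results of these data known. With 1 library per age no test was made; the ratio script was tested on simulated data. Intervals are exact (Clopper-Pearson, Poisson or conditional binomial) and cover counting error only. A sum of 0 in a ratio was set at a limit of 3 UMIs, and list medians used 0.5 added UMIs. Named genes were the 20 highest and 10 lowest by the less extreme library of the comparison with other CD4 T cells, and the 12 highest and 12 lowest between ages by interval bound, without genes of the rule, mitochondria, ribosomal proteins, haemoglobins, the acinar and endocrine lists or unnamed models. Genes of the T cell lists could also be named; some are not reported here. Alternatives changed the marker limit, mitochondrial limit, UMI minimum, scaling (TMM in edgeR 4.0.16, median of ratios), depth and cells; B cells for background held at least 3 Cd79a UMIs.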

Additional observations from a re-analysis of the deposited data

How the results depend on the processing

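No paired analysis was possible because each age had 1 library. The ratio of the members' share among CD4 T cells stayed between 0.701 and 0.789 under every alternative run for it. The number of genes past the fold followed the UMI minimum: at 10 UMIs, 268 genes were higher and 490 lower in members than in other CD4 T cells and 1281 higher and 1226 lower at 12 weeks, and at 100 UMIs these counts were 32, 92, 75 and 112. With cells thinned to 2000 UMIs they were 47, 76, 267 and 211, of which 15, 43, 65 and 111 genes were shared with the main counts. Genes lower in members numbered 118 against the remaining cells, 151 without cycling comparison cells and 179 without cells with 2 or more UMIs of B cell and myeloid markers. Without the cell that held most UMIs of each gene, 81 genes were higher in members. TMM scaling gave 106 and 293 for the comparison with other CD4 T cells and 534 and 503 between ages, and median-of-ratios scaling 107, 297, 522 and 511.

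Some named ratios turned direction. Thinning to 2000 UMIs gave Sh2b3 0.567, Tma16 and Bag3 0.580 and Rarg 0.541 for members over other CD4 T cells in the lower library, and the comparison without cycling cells gave Hist1h2ap 1.10. Between ages, leaving out cells with 2 or more B cell and myeloid UMIs gave Cd74 1.09, H2-Eb1 1.47, H2-Aa 1.16, H2-Ab1 1.04 and Lyz2 0.892. Leaving out those with 10 or more gave Cd74 1.12, H2-Eb1 1.56, H2-Aa 1.19 and H2-Ab1 1.11. For 32 combinations of a named gene and an alternative no ratio could be given, since both sums were at or under 3 UMIs or a limit lay on the wrong side of 1. The comparison without cycling cells, the removal of cells with 10 or more B cell and myeloid UMIs and the removal of barcodes that both libraries hold were chosen after seeing the data.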
